A study of Mus musculus with 6 samples.

Results

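Transcripts flanking Nos3 were examined in the E13.5 mouse outflow tract (OFT). Nos3 encodes endothelial nitric oxide synthase and lies on chromosome 5. The members were 10 transcripts, 4 noncoding and 6 coding, out of 28777 genes in the count table. The noncoding members were AI506816, Gm15587, 2700038G22Rik and 6030443J06Rik, and the coding members were Kmt2e, Srpk2, Rint1, Pus7, Atg9b and Abcb8. All 10 lie within 2 Mb of Nos3 and all 10 passed the filter on low counts, which left 28157 genes. They were chosen by name and position with their fold changes between the mutant and wildtype labels already known. Those fold changes are therefore given below as a description, with no p-value, and the calls that the fit of all genes made among the members are counted only beside the same share over all genes.

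Bulk RNA-Seq libraries numbered 6, 3 labelled mutant and 3 labelled wildtype. The mutant label stands for Notch1+/-; Nos3-/- embryos, with 1 working copy of Notch1 and none of Nos3, and the wildtype label for littermates with intact copies of both genes. Both knockout strains are constitutive and were kept on a C57/BL6J background. A library pooled the OFTs of 3 embryos, 18 embryos in all. The libraries labelled mutant carry the Nos3 allele together with the chromosome 5 sequence inherited with it, so that the allele, linked sequence and the Notch1 allele cannot be told apart in this design.

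The outflow tract is the arterial pole of the embryonic heart, which divides into the aorta and pulmonary artery and forms the semilunar valves. Nitric oxide made by Nos3 in endothelium acts on neighbouring cells through soluble guanylate cyclase. Long noncoding transcripts are often expressed from the start sites of coding genes or from the opposite strand of a coding gene, and some serve mainly as hosts of small nucleolar RNAs, short guides for the chemical modification of other RNAs that are cut from introns.

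The noncoding members stood in 3 kinds of position on GRCm38, the build also called mm10. Gm15587 (chr5:24366192-24383614, minus strand) is annotated as antisense and lies wholly within Nos3 (chr5:24364810-24384474, plus strand). AI506816 (chr5:23698296-23712667, minus strand) lies 652 kb from Nos3 between Srpk2 and Pus7, and 2700038G22Rik (chr5:23850597-23855038, plus strand) lies 510 kb from Nos3 beyond Rint1. 6030443J06Rik (chr5:22550432-22807850, plus strand), 1557 kb from Nos3, is annotated as a long intergenic transcript. It begins 3 bases from the start of Orc5, a subunit of the origin recognition complex, on the other strand. All 3 lie on the same side of Nos3. Of the coding members, Kmt2e (chr5:23434441-23504235) and Srpk2 (chr5:23503264-23684617) meet tail to tail, as do Nos3 and Atg9b (chr5:24384181-24392143). Pus7 (chr5:23740648-23783711) and Rint1 (chr5:23787711-23820369) lie between AI506816 and 2700038G22Rik. Abcb8 (chr5:24393663-24410054) follows Atg9b, 9.19 kb from Nos3.

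The start sites of AI506816 and 2700038G22Rik are shown because the genes share sequence there, although they lie 138 kb apart on opposite strands. Each is given 5′ to 3′ from 250 bases before to 50 bases after the RefSeq start, on GRCm38.p6, with the longest run common to both in capitals. The AI506816 window is chr5:23712618-23712917 on the minus strand and the 2700038G22Rik window is chr5:23850347-23850646 on the plus strand.
AI506816: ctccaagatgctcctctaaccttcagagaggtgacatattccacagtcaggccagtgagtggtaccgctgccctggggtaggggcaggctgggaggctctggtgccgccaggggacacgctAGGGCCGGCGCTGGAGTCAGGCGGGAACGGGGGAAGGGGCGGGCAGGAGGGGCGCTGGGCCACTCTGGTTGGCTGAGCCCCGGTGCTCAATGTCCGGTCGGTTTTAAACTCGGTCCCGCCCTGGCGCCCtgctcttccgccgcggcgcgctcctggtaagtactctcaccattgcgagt
2700038G22Rik: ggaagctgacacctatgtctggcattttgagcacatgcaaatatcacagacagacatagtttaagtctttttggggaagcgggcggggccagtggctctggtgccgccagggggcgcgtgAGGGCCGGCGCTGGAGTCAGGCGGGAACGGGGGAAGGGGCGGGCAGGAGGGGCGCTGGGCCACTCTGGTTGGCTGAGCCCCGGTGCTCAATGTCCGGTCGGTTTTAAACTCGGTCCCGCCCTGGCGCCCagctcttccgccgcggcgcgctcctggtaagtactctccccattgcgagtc
The shared run was 129 bases long. In the best local alignment of both windows, 214 of 227 aligned bases were identical, or 94.3%.

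The likeness extends into the genes. Each holds an intronic small nucleolar RNA, Mir3096 within AI506816 (chr5:23710991-23711061) and Snord93 within 2700038G22Rik (chr5:23852210-23852280). The GENCODE sequences are shown with the base that differs in capitals, and 70 of 71 bases were identical.
Mir3096: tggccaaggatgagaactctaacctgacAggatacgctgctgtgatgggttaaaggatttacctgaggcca
Snord93: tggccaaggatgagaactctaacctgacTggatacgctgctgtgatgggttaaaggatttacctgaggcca
The most alike transcripts of both genes matched at 331 of 339 aligned bases. Long identical stretches were few in the spliced transcripts, with 39 words of 47 bases in common, 0.872% of those of AI506816 and 2.52% of those of 2700038G22Rik. A word of this length is what trimming left of the first read of a pair, and the other words of either gene differ from those of its partner. Over all other genes and both strands, partner included, AI506816 shared 11.9% of its words and 2700038G22Rik 5.11%. On the same strand these shares were 7.11% and 5.11%.

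The windows of the other noncoding members are shown because 1 faces a coding gene and the other lies inside Nos3, with matches to 4 motifs in capitals. The motifs searched on both strands were the TATA box (TATAAA), the CCAAT box, the core of the GC box bound by Sp1 (GGGCGG) and the core bound by the Notch effector Rbpj (TGGGAA). The 6030443J06Rik window is chr5:22550163-22550462 on the plus strand and runs across the start of Orc5, and the Gm15587 window is chr5:24377269-24377568 on the minus strand, within the body of Nos3. The RefSeq start in the Gm15587 window lies inside the gene as GENCODE places it, not at its 5′ end, so this window is not the start of the gene as counted here.
6030443J06Rik: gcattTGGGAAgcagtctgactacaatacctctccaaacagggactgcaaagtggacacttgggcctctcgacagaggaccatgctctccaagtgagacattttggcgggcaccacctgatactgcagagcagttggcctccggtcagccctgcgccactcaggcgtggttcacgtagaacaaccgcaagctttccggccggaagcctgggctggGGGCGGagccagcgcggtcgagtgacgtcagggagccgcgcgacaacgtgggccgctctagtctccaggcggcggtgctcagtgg
Gm15587: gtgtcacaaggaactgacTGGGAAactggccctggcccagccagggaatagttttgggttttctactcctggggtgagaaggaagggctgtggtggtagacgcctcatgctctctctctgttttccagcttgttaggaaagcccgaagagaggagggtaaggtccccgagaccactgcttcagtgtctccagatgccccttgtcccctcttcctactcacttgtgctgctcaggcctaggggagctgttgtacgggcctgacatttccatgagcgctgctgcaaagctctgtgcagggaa
TGGGAA was found 1 time in each of these windows and 0 times in those of AI506816 and 2700038G22Rik, and 25.6% of all 32851 RefSeq windows of this length held it. GGGCGG was found 2 times for AI506816, 3 times for 2700038G22Rik, 1 time for 6030443J06Rik and 0 times for Gm15587, against 35.7% of all windows with a match. TATAAA (13.6% of all windows) and CCAAT (37.4%) were found in none of the 4 noncoding windows, and no match overlapped another.

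GC content was 66.3% for AI506816, 64.3% for 2700038G22Rik, 62.3% for 6030443J06Rik and 56.0% for Gm15587, beside a median of 52.7% over all windows. The observed over expected CpG ratio was 0.64, 0.76 and 0.72 in the first 3 and 0.21 in Gm15587, beside a median of 0.38. Among coding members with an entry, GC content was 57.3% for Rint1, 55.3% for Pus7, 50.7% for Atg9b and 44.3% for Srpk2, with CpG ratios of 0.53, 0.92, 0.10 and 0.48. The CpG ratio of Pus7 was thus above those of all 4 noncoding windows. Kmt2e and Abcb8 had no entry in the table used.

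The whole series sets the frame for these values. Depth was between 34729103 and 44387490 counts per library, and levels below are in CPM (reads of a gene scaled to a common library size after TMM normalization). Nos3 was lower under the mutant label, 21.5 ± 0.95 against 42.4 ± 9.18 CPM (SD, n = 3 each), but missed the threshold over all genes (log2 fold change −0.98 ± 0.15 SE, adjusted p = 0.128, edgeR's quasi-likelihood test). It was called by DESeq2's Wald test (adjusted p = 9.42e-06) and by edgeR without wildtype replicate 1. Notch1 was higher under the mutant label (152.0 ± 10.9 against 82.0 ± 7.09 CPM, log2 fold change 0.89 ± 0.10, edgeR adjusted p = 0.0313), against its label of 1 working copy, so groups are named by their labels throughout. Its call held in 1 of the 6 fits that left out a library, and its groups did not overlap. That fit left out wildtype replicate 1 and called 2593 genes in all. For wildtype replicates 2 and 3 the titles and the descriptions of the samples disagree on the library number, and the numbers used here follow the titles. The count is of reads over the whole gene and does not show where an allele is interrupted. Summed levels were 18100 to 36000 CPM for 10 myocardial markers and 996 to 1320 for 10 endothelial markers, which fitted the labelled tissue. The sum of 5 smooth muscle markers was 1610 to 2170 CPM, mostly Acta2 (mean 1415 under the wildtype label). Cnn1 and Cald1 averaged 334 and 218 CPM under that label, but Tagln and Myh11 only 2.49 and 1.94. The smooth muscle sum therefore does not stand for every marker in its list. Of 59 markers tested in 10 lists, edgeR called 0 and DESeq2 called 9, beside 4.05% of all genes to which DESeq2 gave an adjusted p. An unadjusted p under 0.05 was found for 28 of them, beside 16.1% of all genes tested. Several sums moved with the label. The myocardial sum was 26000 to 36000 CPM under the wildtype label and 18100 to 25500 under the mutant label, and the neuronal sum of 4 genes was 10.1 to 21.1 and 23.3 to 31.9. The mesenchymal sum of 6 genes was 4570, 2920 and 2450 CPM under the wildtype label and 4850, 5060 and 4410 under the mutant label, with a median log2 fold change of 0.61. The blood sum reached 11800 in wildtype replicate 2 and 10100 in replicate 3 but was 5290 in replicate 1, near the 6080 to 6220 under the mutant label, and the summed liver markers stood at 95.7 CPM in wildtype replicate 2 against 1.59 to 27.1 in the other libraries. Their part in the values below was not tested, and in bulk tissue fewer cells of a type and less RNA per cell cannot be told apart.

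AI506816 was the most abundant member per length under the wildtype label and fell to a small part of that level under the mutant label. It was counted at 307, 252 and 352 CPM in the libraries labelled wildtype and at 12.3, 10.9 and 11.6 CPM in those labelled mutant. The lowest wildtype library was far above the highest mutant library, and the groups did not overlap. The log2 fold change was −4.71 ± 0.15 (SE), which is 26.2-fold lower under the mutant label. In raw reads the gene held 10454 to 13661 per library under the wildtype label and 407 to 491 under the mutant label. Larger absolute fold changes were fitted for 113 of the 28157 genes.

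Gm15587, the antisense transcript of Nos3, moved the other way and started from near the detection limit. It was counted at 0.54, 0.22 and 0.28 CPM under the wildtype label and at 3.95, 4.38 and 4.48 CPM under the mutant label. The reads behind these values were 24, 9 and 9 in the wildtype libraries and 158, 164 and 169 in the mutant libraries. All mutant libraries were above all wildtype libraries, and the 3 mutant libraries lay close together (coefficient of variation 6.62%, against 49.8% under the wildtype label). The log2 fold change was 3.60 ± 0.32, or 12.1-fold higher under the mutant label. Without wildtype replicate 1, the highest of the wildtype libraries, it was 4.11.

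Nos3 and Gm15587 had fold changes of opposite sign within 1 locus. Reads of Gm15587 amounted to 1.7%, 0.459% and 0.577% of those of Nos3 in the wildtype libraries and to 17.9%, 19.9% and 22% in the mutant libraries. Exons of both genes share 1040 bases, 27.7% of the exon length of Gm15587, on opposite strands. The libraries were made with a stranded kit, but whether the counting used the strand is not given in the sources used here. Without strand, reads in the shared bases cannot be told apart between the genes, so the values of both are uncertain. The other exon bases of Gm15587 lie in introns of Nos3. Reads of unspliced Nos3 RNA in these total RNA libraries could then also be counted there. The whole value of Gm15587 is therefore uncertain, not only that of the shared bases, and this was not tested.

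2700038G22Rik, which shares its start site sequence with AI506816, moved against it. It was counted at 3.19, 6.24 and 4.53 CPM under the wildtype label and at 15.9, 18.0 and 17.8 CPM under the mutant label. The groups did not overlap, and the wildtype libraries were the more spread (coefficient of variation 32.8% against 6.71%). The log2 fold change was 1.89 ± 0.21, or 3.71-fold higher under the mutant label.

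The opposite changes of this pair were unequal in size. Mean levels differed between the groups by 292 CPM for AI506816 and by 12.6 CPM for 2700038G22Rik. Reads of 2700038G22Rik were 1.04%, 2.48% and 1.29% of those of AI506816 in the wildtype libraries and 130%, 166% and 153% in the mutant libraries, so the more abundant gene of the pair was a different one under each label. With both genes summed as 1 feature, a choice made after the data were seen, levels were 311, 258 and 357 CPM under the wildtype label and 28.2, 28.9 and 29.5 CPM under the mutant label. The log2 fold change of the sum was −3.42 ± 0.13.

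The small nucleolar RNAs within this pair were close to the detection limit. Mir3096 had 2, 0 and 0 reads in the wildtype libraries and 8, 3 and 2 in the mutant libraries, and Snord93 had 2, 1 and 0 against 5, 7 and 12. All wildtype counts were under the floor of 3 reads per library. Mir3096 thus had no fewer reads under the label in which its host AI506816 was low, at counts too small for a fold change.

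6030443J06Rik was the least abundant noncoding member under the mutant label and was also higher there. It was counted at 0.77, 0.96 and 0.65 CPM under the wildtype label and at 2.85, 3.76 and 3.24 CPM under the mutant label. These levels rest on 21 to 40 reads per wildtype library and 114 to 141 per mutant library, and the groups did not overlap. The log2 fold change was 2.04 ± 0.25, or 4.11-fold higher under the mutant label. The gene body overlaps 9 other annotated genes, of which the pseudogene Gm9523 shares 260 exon bases on the other strand (3.42% of the exon length). Lhfpl3, a coding gene on the same strand (chr5:22746059-23275597), runs past its end and shares no exon bases with it. Lhfpl3 had 0 to 13 reads per library, and whether its unspliced RNA was counted here was not tested. Gm9523 was counted at 20.8 ± 0.29 CPM under the wildtype label and 20.9 ± 0.50 under the mutant label, with a log2 fold change of 0.01 ± 0.10.

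**Figure D1:**
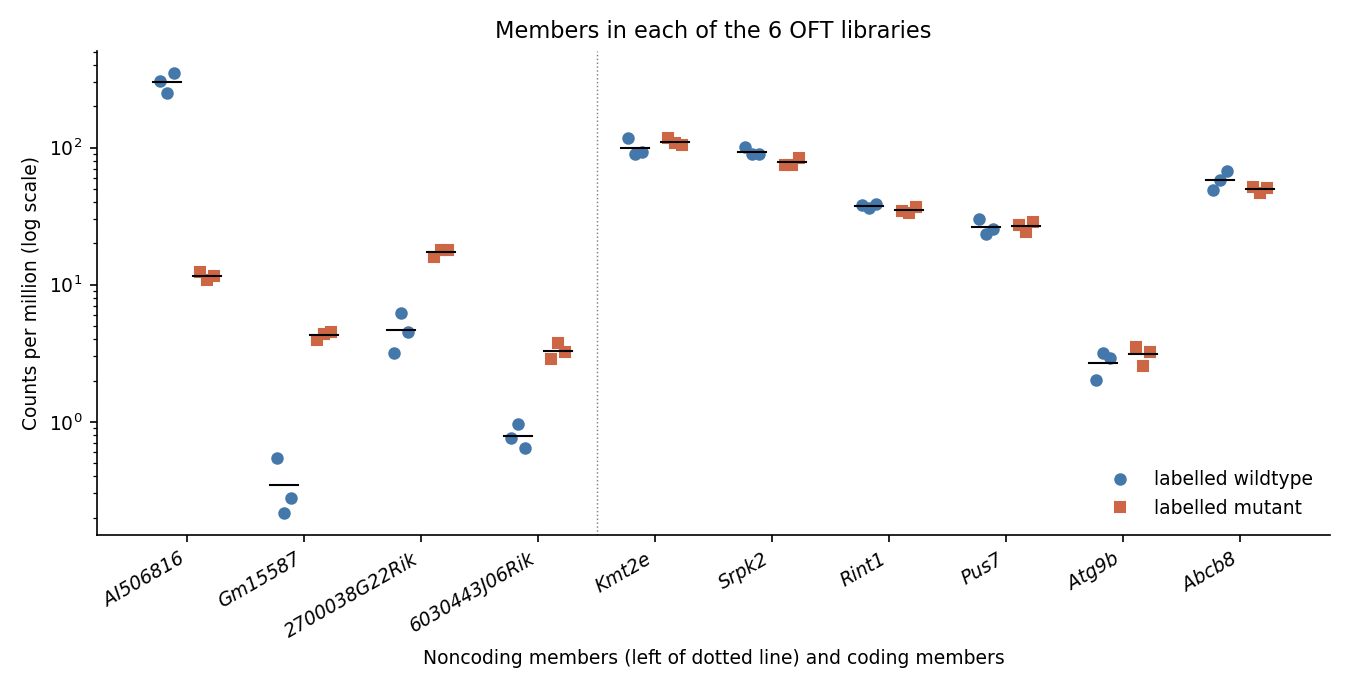
Level in CPM (log scale) of the 10 members in each of the 6 libraries, with circles for libraries labelled wildtype, squares for those labelled mutant and a line at the mean of 3. The groups are apart in all 4 noncoding members, AI506816 downward and the other 3 upward, while among coding members only those of Srpk2 do not overlap.

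The coding members held nearly the same level under both labels. Kmt2e, a SET-domain protein of chromatin, was counted at 117, 89.6 and 93.3 CPM under the wildtype label and at 118, 109 and 105 CPM under the mutant label (log2 fold change 0.14 ± 0.12). Its highest values in both groups were within 1 CPM of each other, and the groups overlapped. Srpk2, a kinase that phosphorylates the SR family of splicing factors, was counted at 101, 89.5 and 89.5 CPM under the wildtype label and at 74.4, 74.9 and 84.5 CPM under the mutant label. It was the only coding member whose groups did not overlap, and its log2 fold change was −0.26 ± 0.10. Kmt2e and Srpk2 share 972 exon bases on opposite strands, 9.31% and 6.99% of their exon lengths, so that part of their reads is uncertain.

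Rint1, a subunit of the complex that tethers Golgi vesicles to the endoplasmic reticulum, was counted at 37.9, 36.3 and 39.1 CPM under the wildtype label and at 34.4, 33.6 and 36.7 CPM under the mutant label (log2 fold change −0.11 ± 0.09). Its groups overlapped, and it varied least of the members within the wildtype group (coefficient of variation 3.72%). Pus7, a pseudouridine synthase, was counted at 30, 23.4 and 25.7 CPM under the wildtype label and at 27.1, 24.1 and 28.7 CPM under the mutant label. The mutant values lay within the wildtype range (log2 fold change 0.01 ± 0.12). Rint1 and Pus7 are the coding members between AI506816 and 2700038G22Rik, and Tomm7, described below, also lies between them.

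The coding genes next to Nos3 were likewise close between the labels. Atg9b, a lipid scramblase of autophagosome membranes that ends on the other strand of the last bases of Nos3, was counted at 2.02, 3.18 and 2.9 CPM under the wildtype label and at 3.5, 2.56 and 3.24 CPM under the mutant label. The groups overlapped and the log2 fold change was 0.20 ± 0.23. It shares 294 exon bases with Nos3, 7.45% of its exon length. Abcb8, a transporter of the mitochondrial inner membrane, was counted at 49.3, 57.9 and 67.7 CPM under the wildtype label and at 51.5, 46.9 and 50.7 CPM under the mutant label. Its log2 fold change was −0.23 ± 0.12 with overlapping groups.

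By the threshold used over all genes (edgeR adjusted p of at most 0.05), all 4 noncoding members and 0 of the 6 coding members were called, beside 0.0213% of all genes tested (6 of 28157). Higher under the mutant label were 3 members, beside 0.0178% of all genes, and lower was 1, beside 0.00355%. DESeq2 called the same 4 members, beside 4.05% of the genes to which it gave an adjusted p. An unadjusted p under 0.05 was found for 5 members, beside 16.1% of all genes. These counts were known when the members were chosen, and nothing is read from them. The 5 members whose groups did not overlap stand beside 19.6% of all genes tested. Over the coding members the median absolute log2 fold change was 0.17, and over the noncoding members 2.82, beside 0.27 over all genes tested and 0.18 over the 16655 with a mean of at least 1 CPM. The fold changes of the members were likewise known when they were chosen. Leaving out 1 library at a time left AI506816 called in 6 of 6 fits, Gm15587 in 5, 2700038G22Rik in 2 and 6030443J06Rik in 1. Gm15587 was not called without mutant replicate 3. 2700038G22Rik was called only without wildtype replicate 1 or 2, and 6030443J06Rik only without wildtype replicate 1. Over all genes, the fit without wildtype replicate 1 called 2593 and that without wildtype replicate 2 called 3. The fits without wildtype replicate 3, mutant replicate 1 or mutant replicate 2 called 2 each. That without mutant replicate 3 called 1.

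Levels per kilobase of exon changed the order of the members between the labels. Under the wildtype label AI506816 led at 67.8 ± 11.3 CPM per kb (SD, n = 3), followed by Abcb8 (12.3 ± 1.94), Kmt2e (9.58 ± 1.45), Srpk2 (6.72 ± 0.49), Rint1 (5.1 ± 0.19) and Pus7 (3.18 ± 0.41). The last were 2700038G22Rik (2.92 ± 0.96), Atg9b (0.68 ± 0.15), 6030443J06Rik (0.10 ± 0.02) and Gm15587 (0.09 ± 0.05). Neighbours in this order whose libraries overlapped were Abcb8 and Kmt2e, Pus7 and 2700038G22Rik, and 6030443J06Rik and Gm15587. Under the mutant label 2700038G22Rik (10.8 ± 0.73), Kmt2e (10.6 ± 0.64) and Abcb8 (10.5 ± 0.53) came first with overlapping libraries. Srpk2 (5.61 ± 0.41), Rint1 (4.71 ± 0.22) and Pus7 (3.21 ± 0.28) kept their order, and AI506816 (2.59 ± 0.16) stood after Pus7. Gm15587 (1.14 ± 0.08) was above Atg9b (0.79 ± 0.12), and 6030443J06Rik was last (0.43 ± 0.06).

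**Figure D2:**
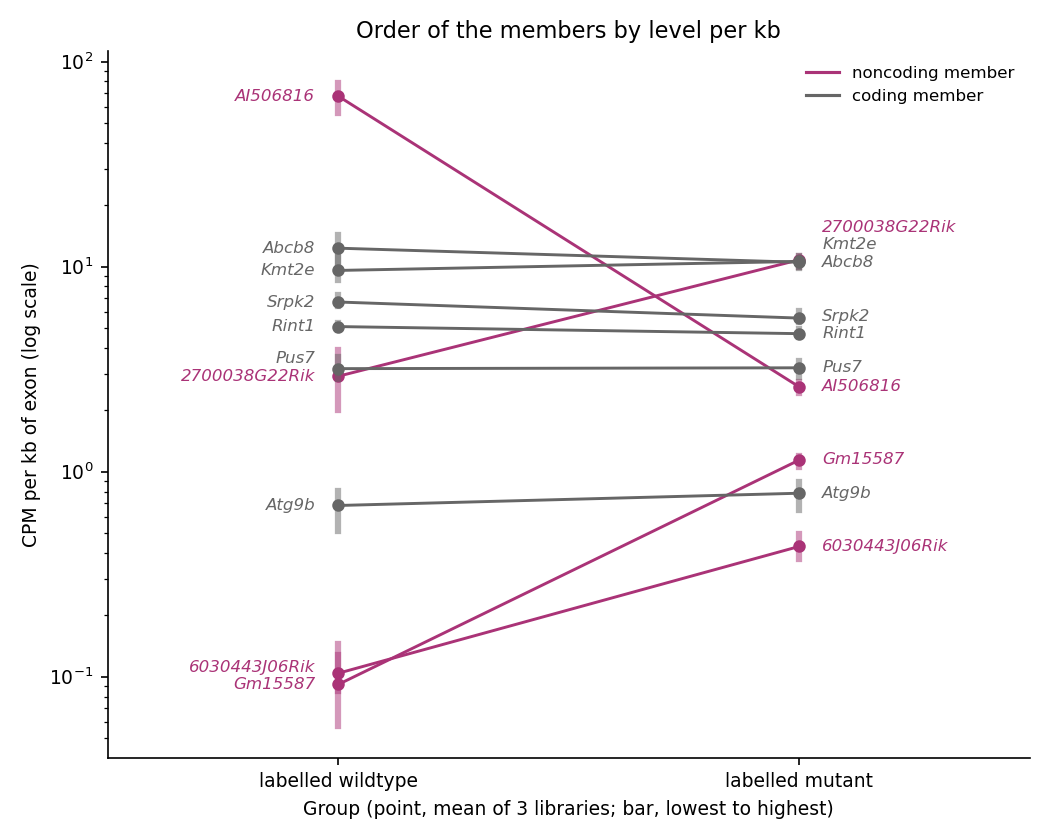
Level per kilobase of exon (CPM per kb, log scale) of each member under the wildtype label (left) and the mutant label (right), with points for means of 3 libraries and bars from the lowest to the highest library. AI506816 drops from first place (67.8) to below Pus7 (2.59), the other noncoding members climb, and the lines of the coding members are nearly level.

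Among 3534 genes annotated as intergenic, antisense or processed transcripts, AI506816 held rank 5 in level per kb under the wildtype label and rank 181 under the mutant label. 2700038G22Rik moved from rank 148 to 43, Gm15587 from 1897 to 397 and 6030443J06Rik from 1795 to 878. In each library the median of the noncoding members on the log2 CPM per kb scale was below that of the coding members. The gap was −3.43, −2.95 and −3.50 in the wildtype libraries and −1.54, −1.55 and −1.63 in the mutant libraries. It was smaller in each mutant library, while the noncoding sum, mostly AI506816 under the wildtype label, was 259 to 358 CPM there and 35.0 to 37.2 CPM under the mutant label.

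Ratios to a coding neighbour within the same library do not depend on the normalization. There were 10.2, 10.8 and 13.7 reads of AI506816 per read of Pus7 in the wildtype libraries and 0.45, 0.45 and 0.41 in the mutant libraries. For 2700038G22Rik, the ratio to Rint1 was 0.08, 0.17 and 0.12 under the wildtype label and 0.46, 0.54 and 0.48 under the mutant label. 6030443J06Rik amounted to 3.34%, 4.32% and 2.89% of the reads of Orc5 under the wildtype label and to 12.8%, 16.9% and 14.3% under the mutant label, although both genes start at the same place. Orc5 itself was counted at 22.5 ± 0.34 and 22.3 ± 0.24 CPM (log2 fold change −0.01 ± 0.09).

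**Figure D3:**
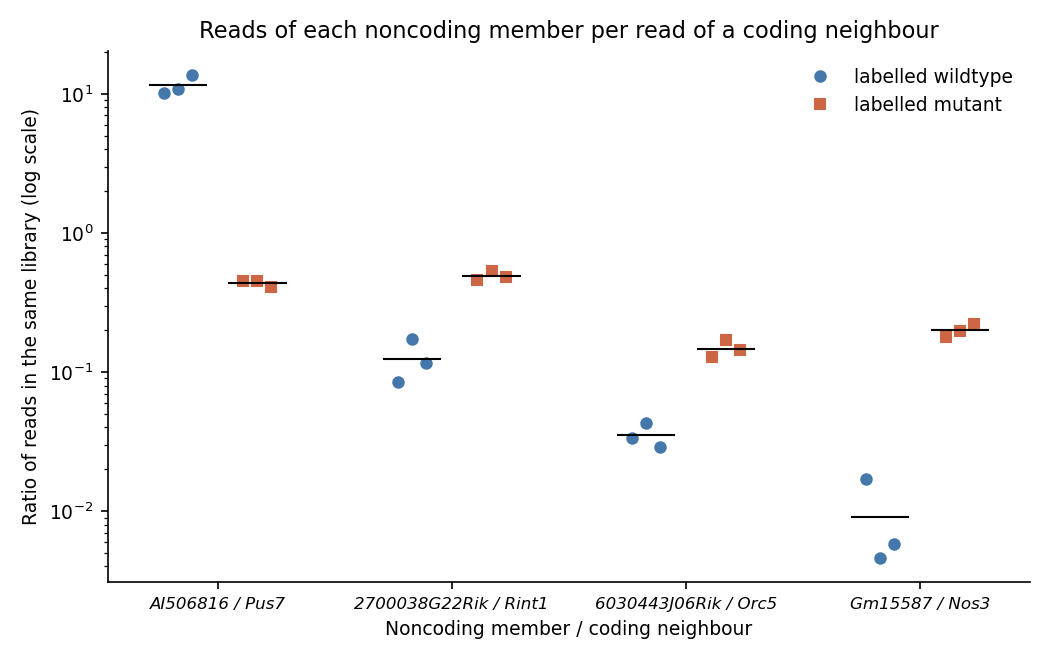
Reads of each noncoding member per read of a coding neighbour in the same library (log scale), with circles for libraries labelled wildtype, squares for those labelled mutant and a line at the mean of 3. The groups are apart in all 4 ratios, from at least 10.2 to at most 0.45 for AI506816 over Pus7 and upward in the other 3.

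The other coding genes next to the noncoding members were Kcnh2, Tomm7 and Fam126a. Kcnh2, a cardiac potassium channel on the far side of Gm15587, had a log2 fold change of −0.07 ± 0.11 with overlapping groups. Tomm7, a subunit of the mitochondrial outer membrane translocase beside 2700038G22Rik, was counted at 65.8 ± 11.4 CPM under the wildtype label and 47 ± 6.45 under the mutant label (log2 fold change −0.48 ± 0.14, edgeR adjusted p = 0.197). Fam126a on its other side had a log2 fold change of −0.12 ± 0.09 (edgeR adjusted p = 0.549).

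Within 2 Mb of Nos3, 85 further genes were tested, 40 coding and 45 noncoding. None was called (0 genes by edgeR), and 18 had an unadjusted p under 0.05, beside 16.1% of all genes tested. DESeq2 called 4, of which 3 were noncoding, beside 4.05% of the genes to which it gave an adjusted p. The median absolute log2 fold change of the 85 was 0.36, and 0.24 over the 40 with a mean of at least 1 CPM, beside 0.18 over all such genes. Among those 40, the median was 0.21 over 23 coding genes and 0.27 over 17 noncoding genes. The wide gap between the coding and noncoding members was thus not seen in the genes around them. Groups did not overlap for 22 of the 85 (25.9%), 11 in each direction, beside 19.6% of all genes tested. The largest change at this level was that of Gm43389, an unclassified transcript 209 kb from Nos3, counted at 36, 24 and 7 reads under the wildtype label and 74, 61 and 70 under the mutant label (log2 fold change 1.70 ± 0.40, edgeR adjusted p = 0.181, DESeq2 adjusted p = 0.0117). Among the 40 with a mean of at least 1 CPM, Gm43389 is the gene nearest in size of change to the noncoding members. The noncoding 1500035N22Rik (−1.07 ± 0.37), the pseudogenes Hspe1-ps3 (−0.56 ± 0.36) and Gm10221 (−0.55 ± 0.16), and Prkag2, a regulatory subunit of AMP-activated kinase (−0.55 ± 0.17), followed on the log2 scale. The nearest genes beyond 2 Mb that averaged 1 CPM or more were Reln (−0.25 ± 0.19) and Dpp6 (0.96 ± 0.31), both with overlapping groups.

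Notch1, the other targeted gene, gave a comparison region on chromosome 2. Of 124 other genes within 2 Mb of it, 0 were called by edgeR. DESeq2 called 5, beside 4.05% of the genes to which it gave an adjusted p. Groups did not overlap for 30.6% of the 124, with 31 higher and 7 lower under the mutant label, beside 19.6% of all genes tested. An unadjusted p under 0.05 was found for 30 of the 124, beside 16.1% of all genes tested. The median absolute log2 fold change of the 124 was 0.29, and the median was 0.17, beside 0.01 over all genes tested. Distance bands around Nos3 held medians of 0.24 (0 to 0.5 Mb), 0.65 (0.5 to 1 Mb) and 0.35 (1 to 2 Mb) for the absolute log2 fold change without the members. The band from 2 to 5 Mb had 0.33 and that from 5 to 10 Mb had 0.26. The middle band, which also holds AI506816, 2700038G22Rik and 4 coding members, rests on 17 genes. These bands have no floor on level. The middle one includes Mir3096 (2.55) and Snord93 (2.93), whose counts are too small for a fold change.

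**Figure D4:**
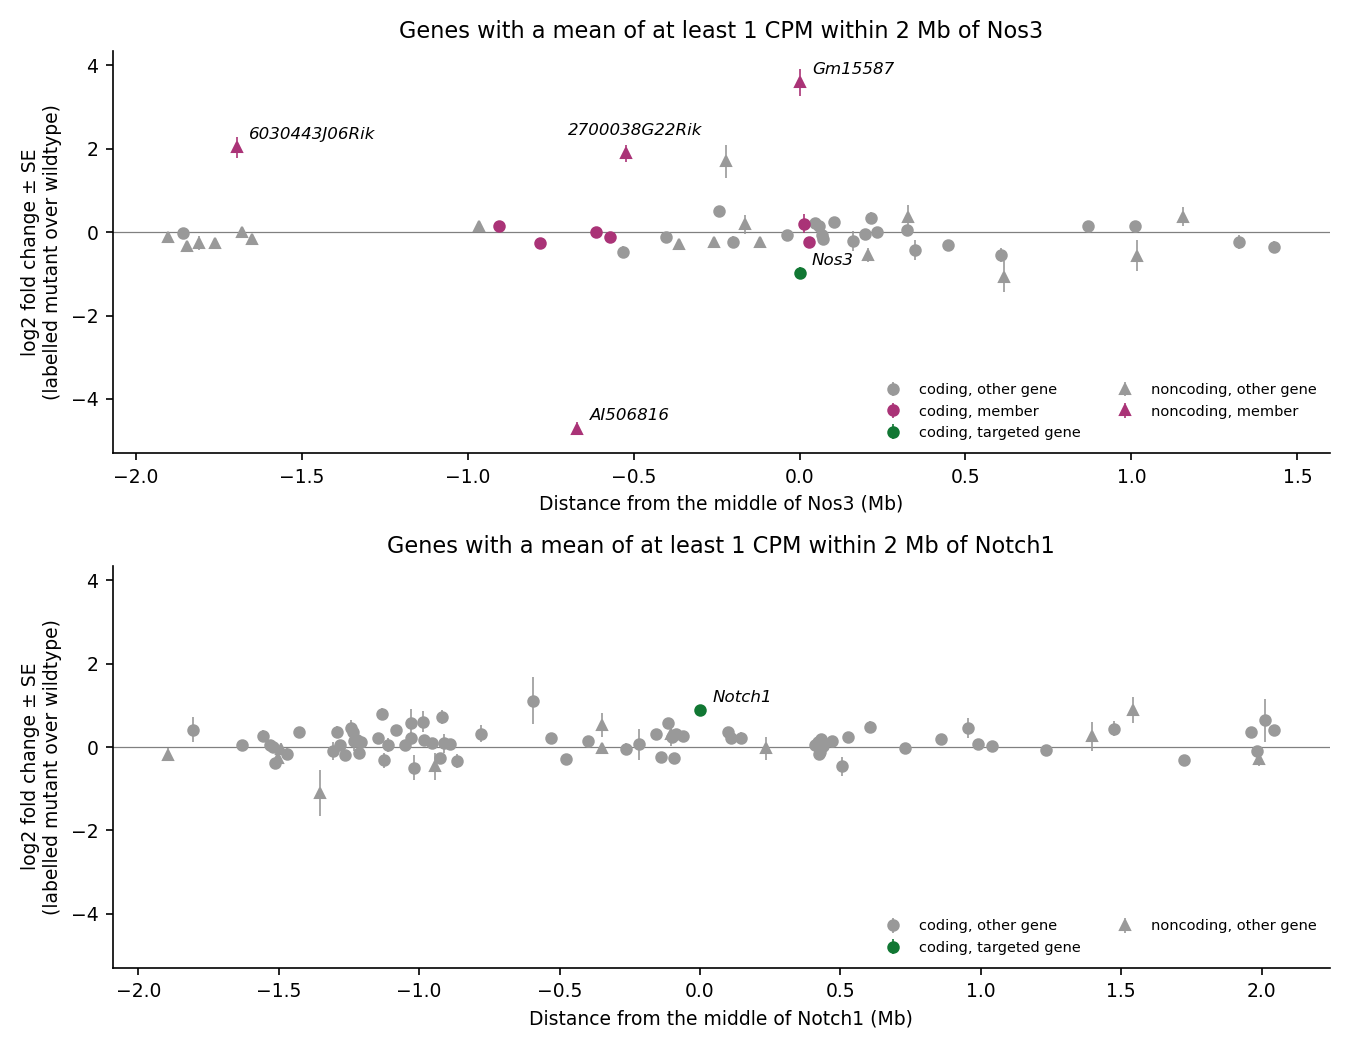
Log2 fold change with its SE (mutant label over wildtype label) of genes at 1 CPM or more on average, by the distance in Mb between the middle of each gene and that of Nos3 (top) or Notch1 (bottom), with circles for coding and triangles for noncoding genes. The 4 noncoding members, at −4.71, 1.89, 2.04 and 3.60, lie outside the range of the coding genes of the Nos3 region, while the 6 coding members lie between −0.26 and 0.20. All members were listed with these values known, so nothing is read from this difference.

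Relatives of the coding members and of Nos3 were counted wherever they lie in the genome. Kmt2c among them lies 887 kb from Nos3, and Wdr5 lies within 2 Mb of Notch1. The 12 genes listed with Kmt2e were Kmt2 and related SET genes, with Wdr5, Ash2l, Rbbp5, Dpy30 and Ogt, which are not SET genes. Of these 12, 0 were called by edgeR, 7 had an unadjusted p under 0.05 and DESeq2 called 2, with a median log2 fold change of 0.19. Of 7 SR protein kinases, 0 were called by edgeR, 4 had an unadjusted p under 0.05 and DESeq2 called 3 (median 0.26), where Srpk2 itself had a negative value. The 7 genes listed with Rint1 act in vesicle tethering and fusion, except Rad50. They had 0 calls by edgeR, 0 by DESeq2 and 0 unadjusted p under 0.05 (median −0.02). Counts of 0 by both tools were also found for 11 pseudouridine synthases tested, with 1 unadjusted p under 0.05, and 14 autophagosome genes with 2. The same held for 4 genes of mitochondrial ABC transporters and the MitoKATP channel with 2, and 15 nitric oxide synthases and partners with 3. The medians of these lists were 0.11, 0.10, −0.18 and −0.07, beside 0.01 over all genes tested. Of all genes tested, 16.1% had an unadjusted p under 0.05, and DESeq2 called 4.05% of those to which it gave an adjusted p.

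Over the 6 libraries, the genes whose standardised log2 CPM was most like that of AI506816 were 1110004F10Rik, Leo1 and Ahrr, with root mean square differences of 0.10, 0.15 and 0.15 SD among 16654 genes. Their log2 fold changes were −0.14, −0.17 and −0.37, so the split between the groups was alike and its size was not. For Gm15587 they were Gm37422, Gm49759 and Sec24c (0.09, 0.09 and 0.11 SD), with log2 fold changes of 0.70, 0.80 and 0.12. All 6 lie on other chromosomes. The libraries share depth and makeup, and in 2 groups of 3 any gene with a tight difference is like any other.

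Spread within the groups differed for most members. The coefficient of variation was larger under the wildtype label for 8 of the 10, with medians of 16.2% and 6.69%. Over the 16655 genes that averaged 1 CPM or more it was larger there for 11097, with medians of 12% and 8.28%. The members with the larger value under the mutant label were Srpk2 (7.23% and 7.3%) and Rint1 (3.72% and 4.67%).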

How the data were processed

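The authors prepared stranded total RNA libraries, aligned reads to mm10 with TopHat 2.1.0 and counted reads on exons with GenomicAlignments. The deposited table gives whole-number counts, not normalized, for 6 libraries, with at least 5 reads per gene in all. The annotation release and the treatment of strand in counting are not given in the sources used here. Genes with 5 or fewer reads in all were left out. TMM normalization was applied to the rest before testing in edgeR 4.0.16 in R 4.3.3 (quasi-likelihood, Benjamini-Hochberg, threshold 0.05). DESeq2 1.42.0, limma-voom 3.58.1 and other settings were alternatives. The code was tested on artificial counts with known answers. Log2 CPM carry a prior count of 2. Positions and exon lengths are from GENCODE M21, which holds all but 54 of 28777 identifiers, and windows at start sites are from RefSeq. Groups follow the labels. The members, gene lists and tests were chosen with earlier results of these data known. Besides the members, genes were named by rule: Nos3 and Notch1, nearest coding neighbours of noncoding members with at least 1 CPM, genes overlapping members, the largest changes within 2 Mb of Nos3, and the genes most alike in pattern. Reln, Dpp6, the liver markers and single smooth muscle markers were named after their values were seen. Some genes of the family lists were named to say what those lists hold. Each library pools 3 OFTs, so p-values measure the spread between pools.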

Additional observations from a re-analysis of the deposited data

How the results depend on the processing

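The 4 noncoding members kept the sign of their log2 fold change under every setting run, and so did Kmt2e, Srpk2, Rint1, Atg9b and Abcb8, while that of Pus7 (0.01) lay between −0.07 and 0.12. Without 1 library at a time the ranges were −4.83 to −4.59 for AI506816, 3.34 to 4.11 for Gm15587, 1.67 to 2.17 for 2700038G22Rik and 1.92 to 2.20 for 6030443J06Rik. Scaling by library size only moved the median of all genes to 0.11 and Rint1 to −0.01.

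Counts of called genes depended on the test. DESeq2 called 742 genes in place of 6, with 4 other genes near Nos3 and 5 near Notch1. A replicate block by the numbers in the titles gave 1577 calls, 8 near Nos3 and 9 near Notch1, and one by the descriptions gave 83, 0 and 1. The members called stayed at 4 with DESeq2 and either replicate block. They were 3 with limma-voom and with filterByExpr, which called 5 genes each in all. Both left out 6030443J06Rik, which was called in 7 of 14 alternatives. Nos3 was called with both blocks. Same-numbered libraries by title had correlations of 0.10, 0.16 and 0.42 between their deviations from the group means, not every library was most like its own number, and no source states what the number marks, so they were not treated as pairs. At an adjusted p of at most 0.01 there were 2 calls, both of them members (AI506816 and Gm15587).

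Leaving out 1 library gave 1 to 2593 calls in all, 0 to 10 near Nos3, 0 to 17 near Notch1 and 1 to 4 members. The highest counts came without wildtype replicate 1 and the lowest in all and over the members without mutant replicate 3. Without division by exon length the gap between noncoding and coding medians was −4.59 under the wildtype label and −2.56 under the mutant label, in place of −3.30 and −1.57. The causes were not tested. Depth limits Gm15587 and 6030443J06Rik most, at 9 to 40 reads per wildtype library, and the small nucleolar RNAs, under the floor there.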
